A study of Mus musculus with 60 samples.

Results

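The transcripts of 8 genes of myelin and of the oligodendrocytes that make it, Mobp, Mbp, Mog, Mag, Mal, Cnp, Cldn11 and Ugt8a, were followed in mouse hippocampus after a single injection of an NMDA receptor blocker. They were chosen by symbol: every probe with 1 of these symbols in the platform annotation was taken, which gave 22 of 45281 probes and 8 of 19057 genes with a probe. There were 5 probes for Mobp, 5 for Mbp, 3 for Mal, 2 each for Mog, Mag, Cnp and Ugt8a, and 1 for Cldn11. Where a gene had several probes, the one with the highest mean signal is called its main probe.

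The hippocampi came from male C57BL/6J mice 8 to 10 weeks old. Mice received ketamine at 20 mg/kg, memantine at 15 mg/kg, phencyclidine (PCP) at 5 mg/kg or saline i.p., or were left naive without an injection, and tissue was taken after 1, 2, 4 or 8 h. Each of the 20 groups of treatment and time had 3 Illumina MouseWG-6 v2 arrays, 60 in all, and each array held the pooled RNA of 2 mice. Memantine is an adamantane amine, whereas PCP and ketamine share an arylcyclohexylamine scaffold. Because the 3 doses differed, values of the drugs are given side by side and were not tested against each other.

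Oligodendrocytes wrap axons with a compacted membrane that speeds conduction, and they supply the axon with energy substrates. The cytoplasmic faces of that membrane are held together by basic proteins, its outer and inner surfaces carry adhesion proteins, and its lipid is rich in galactocerebroside. Oligodendrocytes themselves carry NMDA receptors, and the mRNA of some myelin proteins is carried out into the processes and translated at the sheath. In whole hippocampus, fewer oligodendrocytes and less RNA in each of them cannot be told apart.

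The promoters of the genes that lead the results below are shown with matches to 2 motifs, ACAAAG of the SOX type and CTGGNAC of the MYRF type. SOX factors and MYRF are regulators of oligodendrocytes. Each motif was searched on both strands. N was taken as any base, so a CTGGNAC match can be looser than the motif of MYRF itself. Windows of 250 bases before the start of the gene were taken from RefSeq on GRCm38.p6, where 7 of the 8 genes had at least 1 window. Mobp is shown because its probes gave the largest differences of any member under ketamine and memantine over the mean of the 4 times, and Mog and Mal because they were the pair of genes that varied most closely together. Capitals mark the motif matches, written as they read on the strand of the gene (CTTTGT is ACAAAG on the other strand, and GTACCAG is CTGGTAC).
Mobp, chr9:120149492-120149741, plus strand: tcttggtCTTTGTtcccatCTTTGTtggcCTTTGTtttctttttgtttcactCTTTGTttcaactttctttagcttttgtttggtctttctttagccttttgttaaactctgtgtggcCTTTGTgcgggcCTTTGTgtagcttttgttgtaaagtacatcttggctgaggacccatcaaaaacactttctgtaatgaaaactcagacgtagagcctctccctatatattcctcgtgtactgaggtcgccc
Mog, chr17:37023399-37023648, minus strand: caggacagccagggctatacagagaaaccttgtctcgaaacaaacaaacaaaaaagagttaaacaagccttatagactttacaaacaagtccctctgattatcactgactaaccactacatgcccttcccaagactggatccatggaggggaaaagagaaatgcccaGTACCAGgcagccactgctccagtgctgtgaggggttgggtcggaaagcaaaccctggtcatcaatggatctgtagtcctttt
Mal, chr2:127656696-127656945, minus strand: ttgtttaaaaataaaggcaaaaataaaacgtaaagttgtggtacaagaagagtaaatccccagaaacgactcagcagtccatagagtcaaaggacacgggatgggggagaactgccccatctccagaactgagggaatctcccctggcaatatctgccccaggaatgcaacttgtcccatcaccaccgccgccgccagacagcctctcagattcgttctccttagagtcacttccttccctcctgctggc
The Mobp window held 6 matches to ACAAAG and 0 to CTGGNAC, and it was the only 1 of 32851 windows of mouse genes with at least that many ACAAAG matches. The Mog window held 1 CTGGNAC match and the Mal window had 0 of either motif. The Cnp window (chr11:100574689-100574938) held 1 ACAAAG and 2 CTGGNAC matches, as did the window at the start of Mag (chr7:30914923-30915172), whereas those of Cldn11 and Ugt8a had 0 of both. Across all windows, 16.5% held ACAAAG, 16.1% held CTGGNAC and 2.57% held both. A match is a run of letters and was not tested as a binding site.

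The members were among the brighter transcripts of the hippocampus. Of the 22 probes, 19 lay above the median intensity of all probes on most arrays, and each of the 8 main probes was brighter than at least 91.6% of all probes. The 3 that lay below the median were Mag ILMN_1241209, Mal ILMN_1252139 and Ugt8a ILMN_2584359. The main probe of Mbp, the basic protein that compacts myelin, read close to the top of the scale: its raw intensity had a median of 49802 and reached 65011, where the brightest probe of each array lay between 60449 and 70464. A rise in Mbp would be compressed in that probe. Within groups of 3 arrays, the standard deviation of the main probes was 0.11 to 0.41 on the log2 scale, with a median of 0.22.

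The arrays as a whole differed in background. On 7 arrays from 2 of the 10 slides, the ratio of the 95th to the 5th percentile of intensity was 4.28 to 7.75, against 12.3 to 32.1 on the other 53. These were memantine 8 h replicate 3, naive 8 h replicate 1, PCP 1 h replicate 1, PCP 4 h replicate 2, PCP 8 h replicate 2, saline 2 h replicate 3 and saline 4 h replicate 3. Several results that rest on them are therefore given with and without them, but not all. Of the marker genes, 8 of 11 of the hippocampus and 11 of 14 of neurons lay above the median, and so did 10 of 12 of the striatum, 9 of 13 of the thalamus and 11 of 12 of the choroid plexus, so this measure did not set the hippocampus apart from its neighbours. The mean of the 8 main probes, taken as deviations from the group means, did not clearly follow these array measures (Pearson r = -0.22 and Spearman rho = -0.24 with the percentile ratio, r = 0.26 and rho = 0.24 with median intensity, n = 60 arrays).

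Each drug was first compared with saline over the 4 times together. No member passed an adjusted p under 0.05 in limma for any drug, where 0.00221% of all probes passed for ketamine, 0.0243% for memantine and 0.00221% for PCP. At an unadjusted p under 0.05, 2 of the 22 probes passed for ketamine (6.5% of all probes), 3 for memantine (3.46%) and 0 for PCP (3.85%). The 8 main probes differed from saline by -0.13 to 0.13 on the log2 scale under ketamine, by 0.03 to 0.17 under memantine and by -0.04 to 0.08 under PCP. Their 95% intervals held 0 for 8 of 8 genes under ketamine, 7 of 8 under memantine and 8 of 8 under PCP, and reached from -0.36 to 0.31, from -0.19 to 0.43 and from -0.25 to 0.37. These intervals give the size of change that the arrays leave possible for each gene.

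The drug differences leaned upward. Of the 22 probes, 15 read higher than saline under ketamine with a median of 0.03, 19 under memantine with a median of 0.08, and 16 under PCP with a median of 0.05, while the medians of all probes were 0.003, 0.001 and 0.003. The 3 comparisons use the same saline arrays, and the probes vary together, so these counts are not independent. Under memantine 6 of the 8 main probes turned to below saline with the slide as a block. With naive mice as the control in place of saline, 6 of 8 main probes turned under memantine, 4 under ketamine and 4 under PCP.

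**Figure D1:**
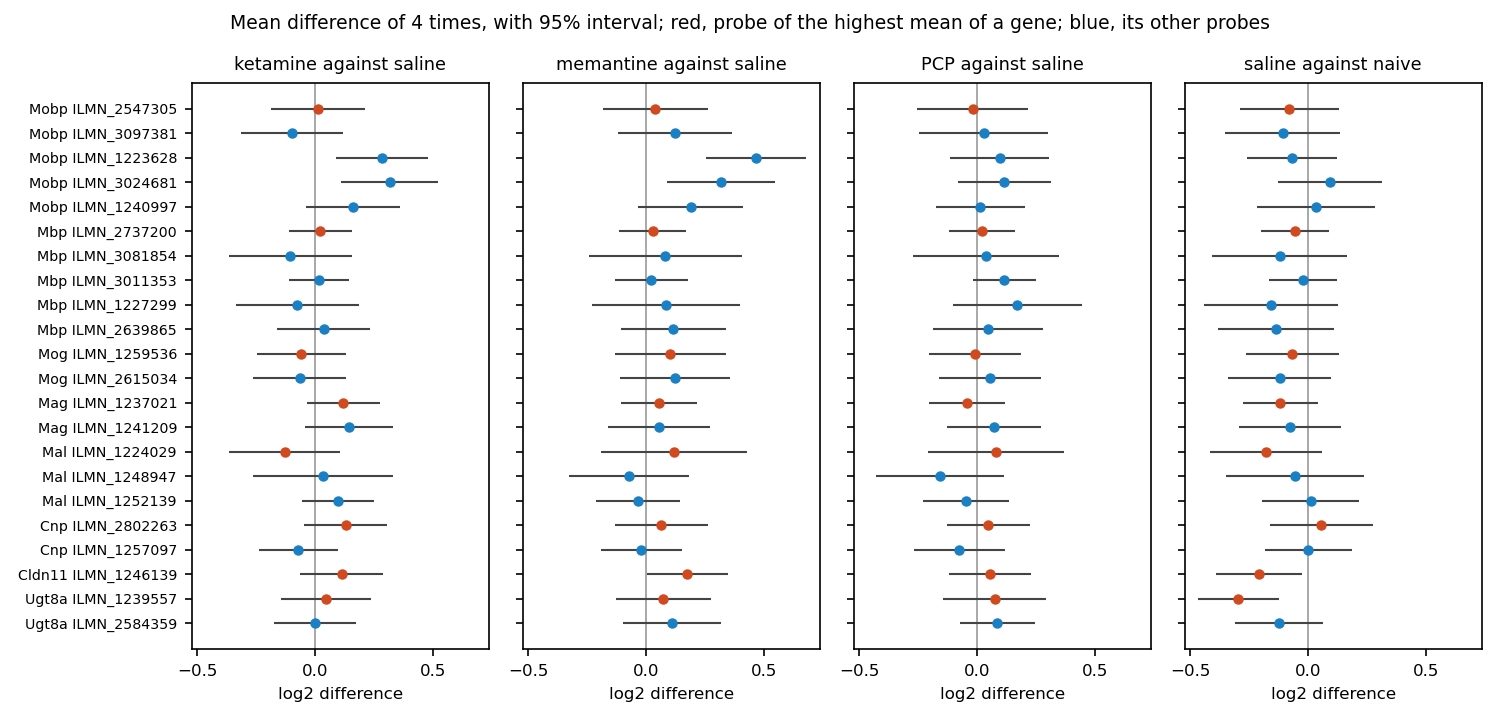
Difference in log2 signal (x axis, with 95% intervals from limma) of the 22 probes (y axis) for ketamine, memantine and PCP against saline and for saline against naive, each the mean of 4 times, with the main probe of each gene in red and the others in blue. Most intervals cross 0; the Mobp probe ILMN_1223628 under memantine lies highest, at 0.47.

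Over the mean of the 4 times, the largest drug differences came from Mobp, which encodes a basic protein of central myelin. They came from some of its probes and not from others. Probe ILMN_1223628, designed to NM_008614, read 10.94 at the lowest, 11.31 at the median and 11.87 at the highest over the 12 saline arrays. It read 11.33, 11.81 and 12.30 over the 12 memantine arrays, 11.30, 11.64 and 12.10 over ketamine, 10.82, 11.48 and 11.77 over PCP, and 11.14, 11.46 and 11.65 over naive mice. The ranges overlapped for every drug, but the memantine arrays as a set sat above both control sets. The mean difference from saline was 0.47 (SE 0.10, 95% interval 0.25 to 0.68, adjusted p = 0.283, limma) under memantine, 0.28 (SE 0.09, adjusted p = 0.753) under ketamine and 0.09 (SE 0.10, adjusted p = 1.00) under PCP.

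Under the rule of the study's methods (an unadjusted p under 0.0005 with a log2 difference above 0.3 at 1 time or more), ILMN_1223628 under memantine was the 1 member of 22 that passed, against 0.0795% of all probes. None of the members passed it under ketamine (0.0552%) or PCP (0.0221%). With all 60 arrays in 1 fit, the memantine difference had an adjusted p of 0.0365, and without the arrays of high background it was 0.43 and did not pass the rule of the methods. With the slide as a block it was 0.46 (adjusted p = 1.00) and did not pass that rule either. No slide held memantine and saline arrays of the same time. For a count within slides, the mean of both treatments at each time was therefore subtracted first. The memantine difference was then above 0 on 9 of 10 slides (median 0.47, range -0.13 to 0.86).

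The memantine difference in ILMN_1223628 was largest at 8 h and next at 4 h. The group means at 1, 2, 4 and 8 h were 11.76, 11.73, 11.78 and 12.03 under memantine. They were 11.45, 11.52, 11.26 and 11.21 in saline and 11.41, 11.50, 11.38 and 11.43 in naive mice. At 4 h memantine thus read level with 1 and 2 h, while saline read lower. In the drug by time interaction, 0 members had an unadjusted p under 0.05 in limma (2.76% of all probes). At 8 h the 3 memantine arrays read 11.72, 12.08 and 12.30 and the 3 saline arrays 10.94, 11.22 and 11.47. All memantine arrays lay above all saline arrays, as in 4.07% of all probes, and the difference was 0.82 (SE 0.20, adjusted p = 0.506, limma). It was 0.69 without the 1 memantine array of high background. Without memantine 8 h replicate 2 it was 0.98 with an adjusted p of 0.0303, so the call at this time depends on that array.

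At 4 h the memantine arrays read 11.48, 11.83 and 12.03 against 11.13, 11.30 and 11.35 in saline, again with no overlap, as in 3.97% of all probes (difference 0.52, SE 0.20, adjusted p = 1.00, limma). Among these saline arrays was 1 of high background, and leaving out 1 array at a time gave 0.39 to 0.67. At 1 h, ketamine arrays read 11.63, 11.94 and 12.00 and memantine arrays 11.70, 11.77 and 11.80, against 11.18, 11.30 and 11.87 in saline. Both drugs overlapped saline there through its highest array. The PCP arrays at 1 h read 10.82, 11.37 and 11.62, level with saline.

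A further Mobp probe, ILMN_3024681, designed to NM_001039365, was higher under ketamine and memantine at about the same size. Over 12 arrays each it read 9.64, 9.94 and 10.45 (lowest, median, highest) in saline, 10.03, 10.29 and 10.91 under ketamine, 9.58, 10.47 and 10.63 under memantine and 9.76, 10.16 and 10.44 under PCP. The difference from saline was 0.32 (SE 0.10, adjusted p = 0.753, limma) under ketamine, 0.32 (SE 0.11, adjusted p = 1.00) under memantine and 0.11 (SE 0.10, adjusted p = 1.00) under PCP. This probe also differed between slides (adjusted p = 0.0432, limma). Within slides, the means of each time were subtracted as above. Ketamine then lay above saline on 8 of 10 (median 0.45) and memantine on 8 of 10 (median 0.42). Without the arrays of high background the differences were 0.26 and 0.21.

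Its clearest separation was at 2 h. Ketamine arrays read 10.32, 10.40 and 10.91 and memantine arrays 10.51, 10.52 and 10.57, against 9.85, 9.95 and 10.01 in saline. Both drugs lay wholly above saline (5.36% and 6.42% of all probes did so), by 0.61 and 0.60 (SE 0.20 each), with adjusted p of 0.498 and 0.248 in limma. These differences were 0.61 and 0.60 without the saline array of high background. Leaving out 1 array at a time gave 0.43 to 0.72 for ketamine and 0.55 to 0.63 for memantine. The other alternative settings gave 0.42 to 0.62 and 0.54 to 0.68. The PCP arrays at 2 h also lay above saline, at 10.11, 10.20 and 10.41, as in 6.27% of all probes. The naive arrays at 2 h read 9.59, 9.74 and 10.41 and so spanned the range of saline and PCP.

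The main probe of Mobp, ILMN_2547305, designed to the cDNA AK013799, did not show this. It read 12.66, 13.01 and 13.56 in saline, 12.76, 13.06 and 13.34 under ketamine, 12.67, 13.06 and 13.42 under memantine and 12.63, 13.03 and 13.44 under PCP. The sets lay on top of each other, and the differences were 0.01, 0.04 and -0.02 (SE 0.10, 0.11 and 0.11). The remaining probes, ILMN_3097381 and ILMN_1240997, both designed to NM_001039365, differed from saline by -0.10 and 0.16 under ketamine and by 0.12 and 0.19 under memantine, with intervals that held 0.

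**Figure D2:**
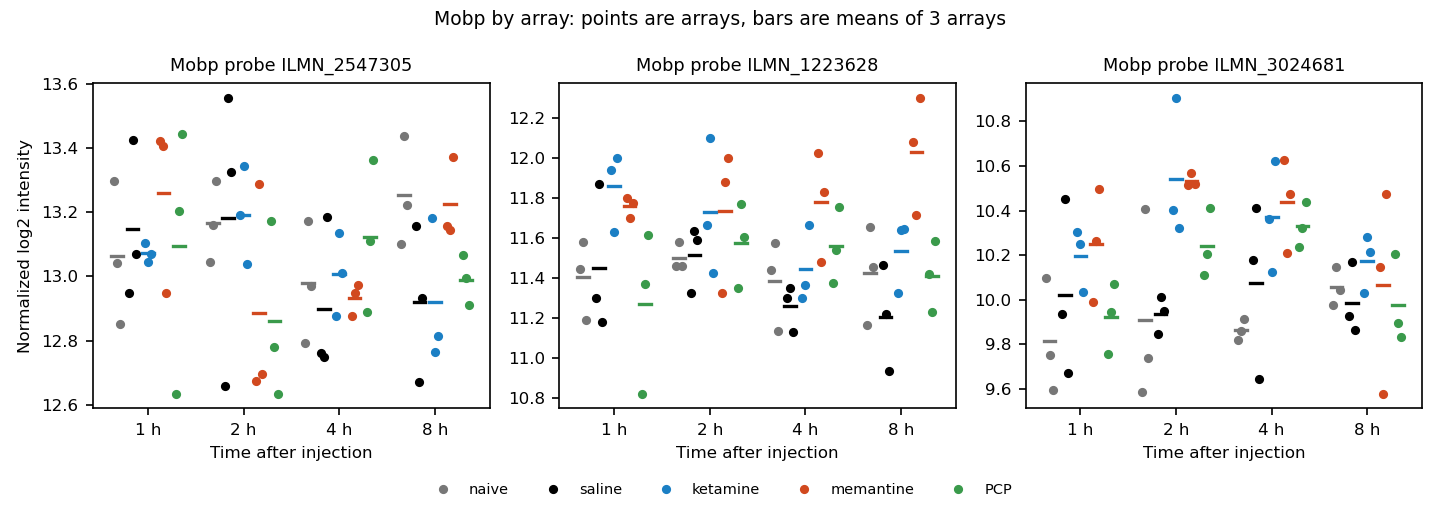
Log2 signal (y axis) of 3 Mobp probes on each of the 60 arrays by time after injection (x axis) and treatment (colours). Memantine arrays of ILMN_1223628 at 8 h lie between 11.72 and 12.30, above the saline arrays at 10.94 to 11.47, whereas the main probe ILMN_2547305 shows no such separation.

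Whether the Mobp probes differed from each other in their drug differences was tested directly. For the 10 pairs of probes and 4 comparisons, the difference between 2 probes was taken on each array and permuted over arrays within times (40 exact two-sided tests of 160000 arrangements each). Under memantine, the difference from saline of the main probe minus that of ILMN_1223628 was -0.43 (exact p = 0.00125, adjusted p = 0.05 over the 40, which is at the limit and not under it). It was 1 of 8 of the 40 tests with an unadjusted p under 0.05. Under ketamine, the value of ILMN_3097381 minus that of ILMN_1223628 was -0.38 (exact p = 0.0131, adjusted p = 0.11) and minus that of ILMN_3024681 -0.42 (exact p = 0.0122, adjusted p = 0.11). Without the arrays of high background, the memantine difference between the main probe and ILMN_1223628 was -0.35, with an adjusted p of 0.248 or more, and with slide effects removed it was -0.44 with an adjusted p of 0.0095. The alternatives to this test were chosen after the data had been seen. For ILMN_1223628 minus ILMN_3024681 the value under ketamine was -0.03 (exact p = 0.716).

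Of the other members, Cldn11, the claudin that seals the layers of the myelin sheath, had the largest memantine difference among the main probes. Over 12 arrays it read 14.05, 14.39 and 14.70 (lowest, median, highest) in saline, 14.18, 14.55 and 14.96 under memantine, and 14.24, 14.55 and 15.04 in naive mice. The memantine and naive arrays had the same median, and memantine differed from saline by 0.17 (SE 0.08, adjusted p = 1.00, limma). Ketamine and PCP differed from saline by 0.11 and 0.05.

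Mag, the adhesion molecule of the membrane next to the axon, differed from saline by 0.12 (SE 0.08), 0.05 and -0.04 under ketamine, memantine and PCP. Mog, the surface glycoprotein of the outermost lamella, differed by -0.06, 0.10 and -0.01. Cnp, the cyclic nucleotide phosphodiesterase that keeps cytoplasmic channels in myelin open, differed by 0.13 (SE 0.09), 0.06 and 0.05. None of these intervals left out 0.

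Mal, a proteolipid that sorts cargo into myelin rafts, was the most variable main probe, and its differences were -0.13 (SE 0.11), 0.12 (SE 0.15) and 0.08 (SE 0.14). Mbp ILMN_2737200 differed by 0.02, 0.03 and 0.02. Since it reads near the top of the scale, Mbp ILMN_3081854 was also inspected, with -0.11 (SE 0.13), 0.08 (SE 0.16) and 0.04 (SE 0.15). At 1 h, ketamine arrays of that probe read 11.84, 12.37 and 12.86 and saline arrays 12.63, 13.12 and 13.27, which overlap (difference -0.64, adjusted p = 1.00, limma). That value rested on single arrays and on the slide: it was -0.39 without ketamine 1 h replicate 3, -0.90 without ketamine 1 h replicate 2 and -0.35 with the slide as a block.

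Injection itself was examined by setting saline against naive mice. No member passed an adjusted p under 0.05 (0.00221% of all probes) and 0 passed the rule of the methods (0.0221%), while 2 of 22 had an unadjusted p under 0.05 (3.24% of all probes). Both were lower after saline, and 17 of the 22 probes read lower, with a median of -0.08 against -0.001 for all probes.

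The larger of these was Ugt8a ILMN_1239557. The gene encodes the galactosyltransferase that makes galactocerebroside, a main lipid of myelin. Over 12 arrays the probe read 9.94, 10.54 and 11.03 (lowest, median, highest) in saline and 10.62, 10.83 and 11.13 in naive mice. The lowest naive array lay above the saline median. The difference was -0.29 (SE 0.08, 95% interval -0.47 to -0.12, adjusted p = 1.00, limma). Without the arrays of high background it was -0.33. No slide held saline and naive arrays of the same time. With the mean of both at each time subtracted first, saline lay below naive on 10 of 10 slides (median -0.23, range -0.70 to -0.02). Signals of this probe also differed between slides (adjusted p = 0.0257).

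By time, the Ugt8a groups were apart at 4 and 8 h. At 4 h saline arrays read 10.13, 10.31 and 10.52 and naive arrays 10.74, 10.82 and 10.95, a difference of -0.51 (SE 0.19, adjusted p = 1.00, limma) with no overlap, as for 4.34% of all probes in that direction. The highest of these saline arrays was of high background, and leaving out 1 array at a time gave -0.61 to -0.42. At 8 h saline arrays read 9.94, 10.41 and 10.52 and naive arrays 10.62, 10.77 and 10.83, again with no overlap (-0.45, SE 0.19, adjusted p = 0.514, limma). At 1 h saline arrays read 10.71, 10.87 and 11.03 against 10.76, 10.85 and 11.13, and the groups overlapped. The change of the difference with time was itself tested as an interaction, and 0 members had an unadjusted p under 0.05 (3.87% of all probes). At 8 h, leaving out saline replicate 2 brought the difference to -0.27.

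The drug-treated mice had Ugt8a values like those of saline mice. Over 12 arrays each, the probe read 10.26, 10.65 and 11.02 under ketamine, 10.22, 10.60 and 11.13 under memantine and 9.89, 10.66 and 11.08 under PCP, and the differences from saline were 0.05, 0.07 and 0.07 (SE 0.09, 0.10 and 0.11). Set against naive mice instead, the drugs gave -0.25, -0.22 and -0.22. Taking all injected mice together, the mean over the 12 arrays of saline and drugs was 10.83 at 1 h, 10.75 at 2 h, 10.43 at 4 h and 10.46 at 8 h, while naive mice read 10.91, 10.97, 10.84 and 10.74 (n = 3 each). The time factor over the 48 injected arrays had an adjusted p of 0.102 in limma, with 0.261% of all probes past the threshold. It passed in 7 of the alternative settings, among them the slide as a block with an adjusted p of 0.0087.

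**Figure D3:**
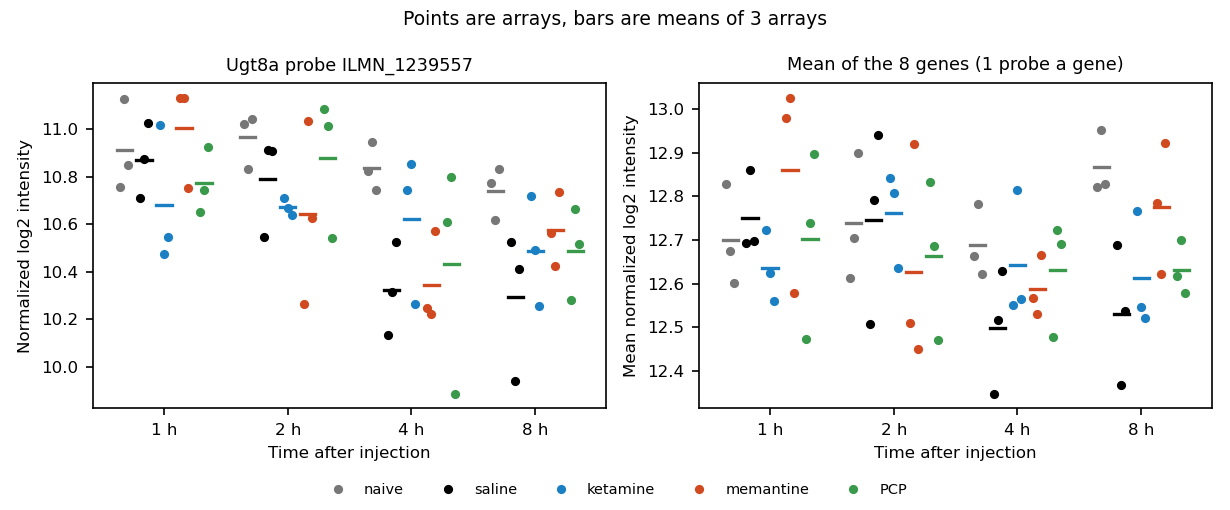
Log2 signal (y axis) of Ugt8a probe ILMN_1239557 and of the mean of the 8 main probes on each of the 60 arrays by time (x axis) and treatment (colours). Naive arrays of Ugt8a stay between 10.62 and 11.13, and saline arrays at 4 and 8 h lie between 9.94 and 10.52.

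Cldn11 was the other member with an unadjusted p under 0.05, at -0.21 (SE 0.09, adjusted p = 1.00, limma). Its saline arrays at 4 h read 14.05, 14.17 and 14.24, just touching the naive arrays at 14.24, 14.46 and 14.58. Mal differed by -0.18, Mag by -0.12 and Cnp by 0.06, with intervals that held 0. The second Ugt8a probe, which lay below the median intensity, gave -0.12 (SE 0.09).

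At single times, the 8 h comparison of saline with naive mice stood out by its direction. Of 22 probes 21 read lower after saline, with a median of -0.29 against 0.01 for all probes, and 7 lay wholly below naive against 5.26% of all probes, but 4 had an unadjusted p under 0.05 (8.38% of all probes) and none an adjusted one. Mal ILMN_1224029 read 10.70, 10.72 and 10.97 after saline and 11.30, 11.43 and 11.72 in naive mice (-0.68, SE 0.31, adjusted p = 0.543, limma). Mag ILMN_1237021 read 12.88, 12.90 and 13.02 against 13.23, 13.28 and 13.29 (-0.33, SE 0.14, adjusted p = 0.52). The groups were apart for these probes but not for others of the same genes. Mal ILMN_1248947, of similar signal, read 10.54, 10.57 and 10.81 after saline and 10.51, 11.02 and 11.30 in naive mice (-0.30, SE 0.28), and Mag ILMN_1241209, which lay below the median intensity, also overlapped.

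Without naive 8 h replicate 1, an array of high background, 20 of 22 probes still read lower, with a median of -0.35. The same saline arrays enter memantine at 8 h, where 19 of 22 probes read higher with a median of 0.19, 3 of them with no overlap (4.07% of all probes). Without memantine 8 h replicate 3 these were 19 and 0.18. The mean of the 8 main probes was 12.87 ± 0.07 (SD, n = 3) in naive mice at 8 h, the highest of the 20 groups, and 12.53 ± 0.16 in saline mice at 8 h and 12.50 ± 0.14 at 4 h, the lowest. Saline at 1 h was 12.75 ± 0.10. These group means were compared after they had been seen.

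**Figure D4:**
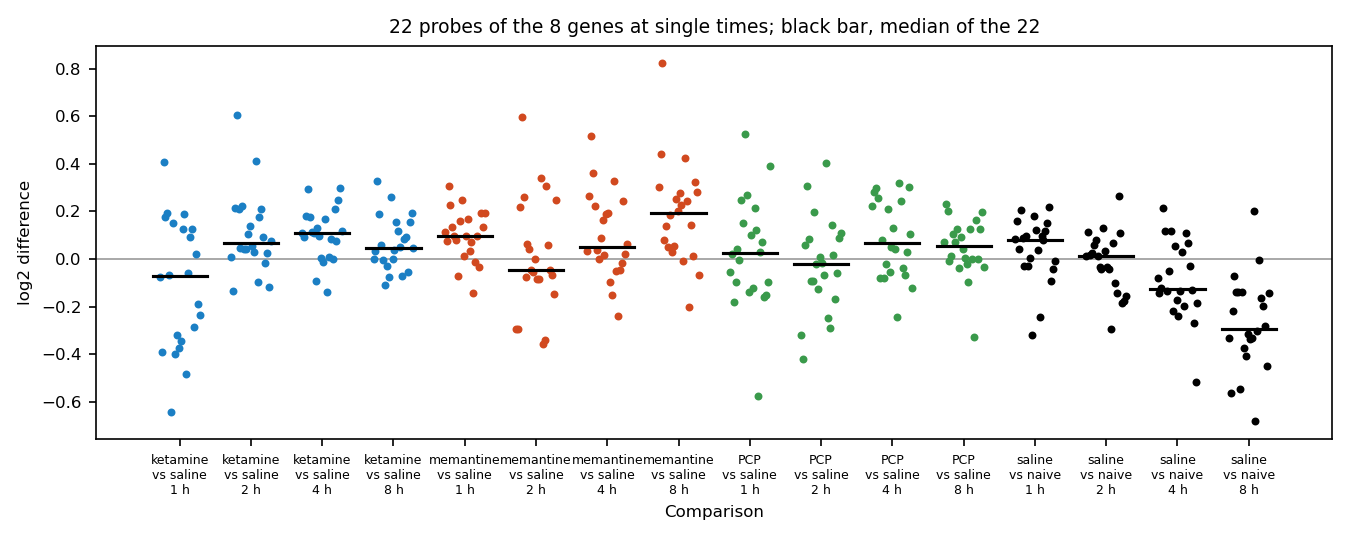
Difference in log2 signal (y axis) of the 22 probes in each of the 16 comparisons at a single time (x axis), with the median as a black bar. Saline against naive at 8 h is the comparison with the lowest median, -0.29, and memantine against saline at 8 h has the highest, 0.19.

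Over the 16 comparisons at single times, 13 of 352 values of member probes, or 3.69%, had an unadjusted p under 0.05, against a mean of 4.73% for all probes, and the lowest adjusted p was 0.248. For drug as a factor over the 48 arrays, Mobp ILMN_1223628 had an adjusted p of 0.318, with 0.0199% of all probes past the threshold. The drug by time interaction gave 0 members at an unadjusted p under 0.05 (2.76% of all probes). Slide was a factor for 5 of the 22 probes at an adjusted p under 0.05 (29.1% of all probes), namely Mobp ILMN_3024681, Mag ILMN_1241209, Mal ILMN_1248947, Mal ILMN_1252139 and Ugt8a ILMN_1239557.

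The wider set of oligodendrocyte genes was read beside the members. Of 80 listed genes of myelin proteins, myelin lipid enzymes, transcription factors, mature cells and precursors, 74 had a probe, and 0 passed an adjusted p in any of the 20 comparisons. At an unadjusted p under 0.05, 7 were higher and 1 lower under ketamine, which is 10.8% of the 74 against 6.5% of all probes. Under memantine 8 were higher and 1 lower (12.2% against 3.46%), under PCP 2 were higher and 0 lower (2.7% against 3.85%), and in saline against naive 1 was higher and 5 lower (8.11% against 3.24%). The list genes vary together and 66 of the 74 lay above the median intensity, so the shares are a description. Outside the rule for named genes, and chosen after their values were seen, are Hapln2 and Enpp6. They are 2 of the 74 genes and only some of their comparisons are given, so they do not stand for their lists. Hapln2, a link protein of the nodal matrix, differed from saline by 0.30 (SE 0.08, adjusted p = 0.753) under ketamine and by 0.36 (SE 0.08, adjusted p = 0.402) under memantine in limma. Enpp6, a marker of newly formed oligodendrocytes, differed by 0.27 (SE 0.10, adjusted p = 0.753) under ketamine and by -0.28 (SE 0.09, adjusted p = 1.00) between saline and naive mice.

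The members varied together between arrays of the same group. For 28 pairs of main probes, taken as deviations from group means over 60 arrays, the median Pearson r was 0.33 and the median Spearman rho 0.37, and 25 of 28 were above 0. By a permutation test within groups (100000 draws, two-sided, smallest possible p = 1e-05), 14 of 28 pairs passed an adjusted p under 0.05. The range was -0.16 for Cnp with Cldn11 to 0.86 for Mog with Mal. The count of 14 was not set against pairs of other genes. Without the arrays of high background it was 11 (normalized on their own) or 10 (normalized with all 60). With slide effects removed it was 16 (20000 draws in each alternative). Ranked by r among 19056 genes, Mobp was 1st for Mbp (rank 1) and Mal had rank 2 for Mog. Mobp had only rank 202 for Mal (r = 0.66) and rank 1035 for Ugt8a (r = 0.43). Values of that size were thus shared with many genes outside the members.

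Mog and Mal were the closest pair (r = 0.86, rho = 0.86, both permutation p = 1e-05, adjusted p = 9.33e-05), and r was 0.84 without the 2 arrays farthest from the median of Mog and 0.86 with slide effects removed. Mobp followed Mbp with r = 0.72 (rho = 0.68) and 0.69 without the 2 farthest arrays. Cldn11 followed Ugt8a with r = 0.66 (rho = 0.68), 0.65 without the 2 farthest arrays and 0.75 with slide effects removed. Neither of them followed Cnp (r = -0.16 and -0.04). Mag was tied to Cldn11 with 0.31 and to Ugt8a with 0.23, and these became 0.64 and 0.61 with slide effects removed.

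**Figure D5:**
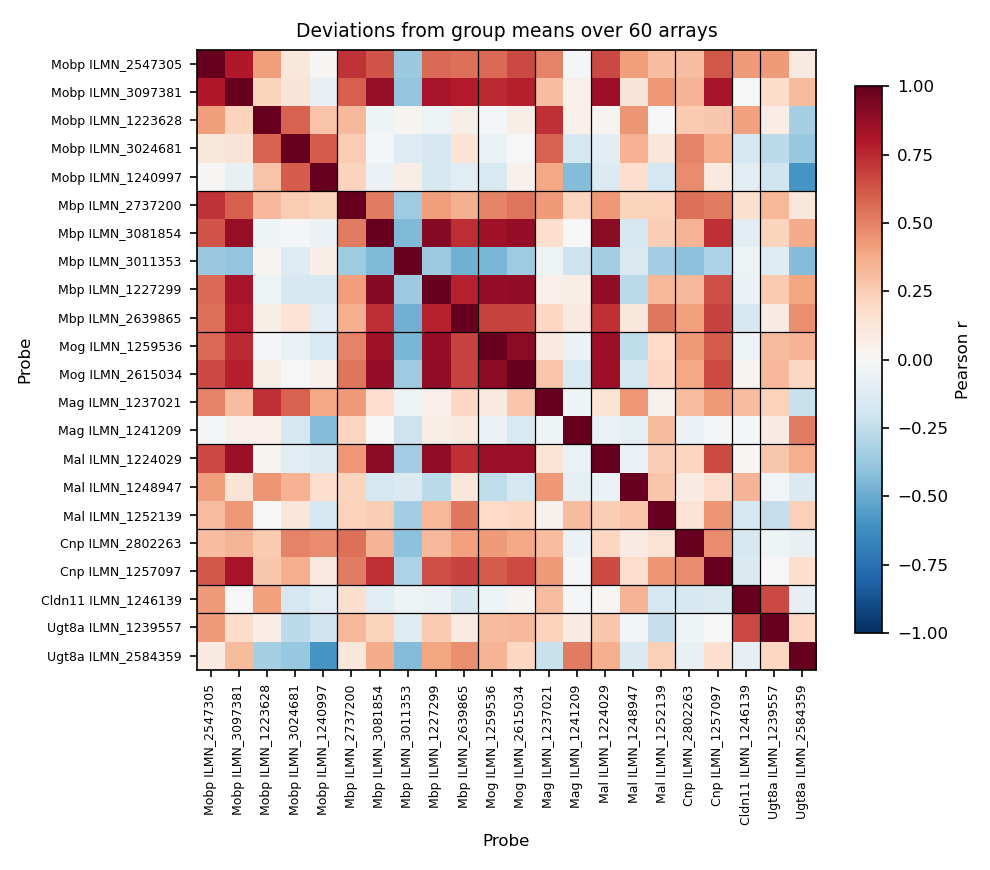
Pearson r between the 22 probes of the 8 genes over 60 arrays, taken as deviations from group means (both axes list the probes, colour gives r from -1 to 1). Mog with Mal reaches 0.86, Mog's own probes 0.90, and Mbp ILMN_3011353 runs against the other Mbp probes.

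Probes of the same gene did not always agree. Of 27 pairs, 12 had a positive r and 2 a negative r past an adjusted p under 0.05. The 2 Mog probes gave r = 0.90 (rho = 0.89), and Mbp ILMN_3081854 and ILMN_1227299 gave r = 0.91 (rho = 0.89), each with a permutation p of 1e-05. Mbp ILMN_3011353, by contrast, ran against the other Mbp probes, from -0.36 to -0.48. The Mal probes ILMN_1224029 and ILMN_1248947 were unrelated (r = -0.07, rho = -0.05) although both were designed to NM_010762 and read similar signals, and the Mag probes gave r = -0.04.

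For Mobp, 4 of 10 pairs passed and the median r was 0.25. The main probe followed ILMN_3097381 (r = 0.80, rho = 0.83) and, less closely, ILMN_1223628 (r = 0.41, rho = 0.37). ILMN_1223628 followed ILMN_3024681 (r = 0.59, rho = 0.58), which in turn followed ILMN_1240997 (r = 0.61, rho = 0.56). The main probe and ILMN_3024681 were close to unrelated (r = 0.11, rho = 0.12). The probes with the larger differences from saline, ILMN_1223628 and ILMN_3024681, thus varied together also within groups, and so did ILMN_2547305 and ILMN_3097381. They were not alike in following the main probes of the 7 other members. The median r with those was 0.50 for ILMN_2547305, 0.34 for ILMN_3097381 and 0.26 for ILMN_1223628. It was -0.07 for ILMN_3024681 and -0.11 for ILMN_1240997, which did not follow the other members as a set.

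A block of 6 probes from 4 genes, seen in the data, had r of 0.75 to 0.91 among themselves: Mobp ILMN_3097381, Mbp ILMN_3081854 and ILMN_1227299, both Mog probes and Mal ILMN_1224029. Mobp ILMN_1223628 lay outside it and followed Mag ILMN_1237021 (r = 0.73). Of 204 pairs of probes from different genes, 12 had r above 0.8 and the median was 0.19.

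Other transcripts moved with the members between arrays. The 10 genes nearest to the mean deviation of the 8 members were Trf (r = 0.83), Plekhb1 (0.73), Rnf13 (0.69), Pcdhgb6 (0.67), Fam168a (0.67), Evi2a (0.66), Kcnip2 (0.65), Maob (0.65), Dtna (0.64) and Slco1a4 (0.63), over 60 arrays. Trf is transferrin, the iron carrier that oligodendrocytes make in the brain. Trf, Plekhb1 and Evi2a were on the oligodendrocyte lists; Maob is a monoamine oxidase found largely in glia, and Slco1a4 an organic anion transporter of brain vessels.

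By list, the mean of 23 other mature oligodendrocyte genes followed the members with r = 0.70 (rho = 0.71, permutation test, adjusted p = 0.00014 over 14 lists), 17 myelin proteins beyond the members with 0.49 (rho = 0.50, adjusted p = 0.0101) and 14 astrocyte markers with 0.51 (rho = 0.52, adjusted p = 0.0115). Few genes of each list were that close: r was above 0.5 for 6 of the 23 mature genes (median 0.31), 2 of the 17 myelin proteins (median 0.20) and 1 of the 14 astrocyte markers (median 0.12). The other lists did not pass an adjusted p under 0.05. Among them, 11 oligodendrocyte transcription factors had r = 0.36 (rho = 0.31, adjusted permutation p = 0.0925), 10 myelin lipid enzymes 0.25 (rho = 0.24, adjusted permutation p = 0.32) and 13 microglial markers -0.37 (rho = -0.34, adjusted permutation p = 0.0704). The 13 precursor genes had r = -0.03 (rho = -0.09) and 14 neuronal markers r = 0.10 (rho = 0.09). Thalamic markers had r = 0.14 (rho = 0.06), and choroid plexus markers 0.17 (rho = 0.20). The part of dissection or cell makeup in the differences above was not tested.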

How the data were processed

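Raw intensities per probe were deposited as a table made with BeadStudio 3.0, with a matrix of quantile-normalized log2 values that the authors made with the BeadArray R package 2.14.1. The intensities were corrected with normexp without control probes (offset 50), quantile normalized and log2-transformed. No depth applies to arrays; 3 arrays a group limit the precision. Genes were named from the platform annotation (34885 of 45281 probes had 1 symbol). Group means were fitted over all 45281 probes with limma 3.58.1 in R 4.3.3, each drug with saline, as in the methods (24 arrays), single times with all 60 arrays, and p-values were adjusted over all probes. Differences between probes of a gene and correlations were tested by permutation within groups or times. The limma comparison of memantine with saline (mean of 4 times and 8 h) and the permutation test of correlations were tried on simulated data. The other tests were not. Members and lists were chosen with earlier results of these data known. All probes of the members are given; other genes named are the 10 nearest to the members' mean, and up to 4 list genes a comparison past an adjusted p under 0.05, which none passed. Replicate numbers did not pair the arrays (same number: mean correlation of deviations -0.01; same slide: 0.19). Alternatives were other background corrections, the authors' values, the brighter probes, blocks for slide or replicate, other variance models, naive controls, and leaving out single arrays or those of high background. P-values measure the spread between pools of 2 mice.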

Additional observations from a re-analysis of the deposited data

How the results depend on the processing

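Over alternatives other than leaving out 1 array, 631 values of single probes kept their direction and side of the threshold. A further 36 reversed and 3 passed it. Of the counts of called probes or pairs, 282 were equal or close to the main count and 14 moved. A count of 10 pairs of members against 14 was still taken as close. No reversed value passed the threshold, and the largest in size was 0.25. The memantine difference of Mobp ILMN_1223628 stayed between 0.40 and 0.47, with adjusted p from 0.0365 (all 60 arrays in 1 fit, 1 member called) to 1.00, and with the replicate number as a block it was 0.47 (adjusted p = 0.402); that block changed no call. The count past the rule of the methods under memantine was 0 with the slide as a block and in both removals of the high-background arrays. It was 1 under ketamine with naive controls (Mobp ILMN_3024681), and 1 for saline against naive without background correction and with the authors' values (Ugt8a ILMN_1239557). The time factor called 1 member (Ugt8a ILMN_1239557) without background correction, with the authors' values, among the probes above median intensity, with the slide as a block, with trended variances and in both removals of high-background arrays (adjusted p 0.0087 to 0.0479). The memantine difference between Mobp ILMN_2547305 and ILMN_1223628 passed at an offset of 16 (-0.43, adjusted p = 0.0495) and with slide effects removed (-0.44, adjusted p = 0.0095).

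With naive mice as the control, ketamine reversed for Mobp ILMN_2547305 (-0.067), Mbp (-0.032), Cldn11 (-0.095) and Ugt8a (-0.25). Memantine reversed for Mobp ILMN_2547305 (-0.040), Mbp (-0.027), Mag (-0.063), Mal (-0.060), Cldn11 (-0.033) and Ugt8a (-0.22). PCP reversed for Mbp (-0.033), Mal (-0.098), Cldn11 (-0.15), Ugt8a (-0.22) and Mobp ILMN_3097381 (-0.080). With the slide as a block, memantine reversed for Mobp ILMN_2547305 (-0.11) and ILMN_3097381 (-0.10), Mbp (-0.024), Mog (-0.10), Mal (-0.15), Cnp (-0.023) and Ugt8a (-0.0049), PCP for Mobp ILMN_1240997 (-0.00016), and saline against naive for Mobp ILMN_2547305 (0.022), Mog (0.020) and Mobp ILMN_1240997 (-0.14). Without high-background arrays, normalized on their own or with all 60, ketamine reversed for Mog (0.022 in both) and PCP for Mobp ILMN_2547305 (0.093), Mog (0.076), Mag (0.011) and Mobp ILMN_1240997 (-0.0030 and -0.0032). The causes were not tested.

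Leaving out 1 array at a time reversed 7 small differences: ketamine Mobp ILMN_2547305 (-0.053 to 0.059), memantine Mobp ILMN_2547305 (-0.026 to 0.086), PCP Mobp ILMN_2547305 (-0.085 to 0.038), Mog (-0.045 to 0.042), Mobp ILMN_3097381 (-0.045 to 0.090) and ILMN_1240997 (-0.037 to 0.051), and saline against naive Mobp ILMN_1240997 (-0.021 to 0.12). The member count ranged from 0 to 1 for memantine at 8 h (1 without memantine 8 h replicate 2) and for the time factor (1 without PCP 4 h replicate 2 or memantine 2 h replicate 1). The memantine difference between Mobp ILMN_2547305 and ILMN_1223628 ranged from -0.47 to -0.37. With 3 arrays a group, changes within the intervals given remain possible. The intervals are not adjusted over all probes as the calls are, so changes beyond them can also go uncalled. The Mbp main probe reads near the top of the scale.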
